A study of Mus musculus with 5 samples.

Results

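A set of 6 genes for alpha subunits of sodium channels was followed across the cell types of the mouse paraventricular hypothalamus and across prenatal valproate and neonatal stimulation groups. The members, Scn1a, Scn2a, Scn3a, Scn8a, Scn9a and Scn7a, were taken by symbol and are 6 of the 31053 genes counted in each library. The nuclei came from 5 single-nucleus RNA libraries of male mice on a C57BL6 background, each pooled from 2 to 4 mice. In the first experiment, OT-Cre; Ai9 mice, whose oxytocin neurons carry the tdTomato reporter through a Cre driven by the oxytocin gene, had been exposed before birth, on gestation day 12.5, to saline (10 mL/kg, 1 library) or to valproic acid (VPA, 500 mg/kg, 1 library), and were 5 weeks old. In the second experiment, all mice were OT-Cre; stop-hM3, with the stimulating receptor hM3 placed in oxytocin neurons by Cre. All had been exposed to VPA at 500 mg/kg on gestation day 12.5, and they received saline (hM3 control, 1 library) or the hM3 agonist CNO (2 libraries) on postnatal day 2. They were taken at 5 to 7 weeks. Per the labels an AAV vector was injected around the paraventricular and supraoptic nuclei of these mice. Sorting was by DAPI, a DNA stain, and kept mainly the larger nuclei in all libraries. Counts are per library, not per mouse.

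Alpha subunits form the pore through which sodium enters when a neuron fires, and which of them a neuron makes sets how readily and how fast it can fire. Valproate, an antiepileptic drug, limits repetitive firing in part through sodium channels and also inhibits histone deacetylases. Scn1a encodes the channel best known in fast-spiking inhibitory neurons, whose loss causes severe childhood epilepsy. Scn2a and Scn8a encode the channels of the axon initial segment, and Scn8a also that of nodes of Ranvier. Scn3a is known chiefly from the developing brain. Scn9a is known from pain-sensing neurons of the body and is also found in the hypothalamus, where oxytocin and vasopressin neurons reside. Scn7a encodes an atypical member that opens to extracellular sodium rather than to voltage. Outside neurons, oligodendrocyte progenitor cells (OPC) are known to carry voltage-gated sodium currents. Nuclear RNA is not channel protein, and in summed nuclei fewer nuclei with a gene and less RNA per nucleus cannot be told apart.

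In the GRCm38 annotation 5 of the 6 genes lie in one stretch of chromosome 2, within 1327.8 kb: Scn3a (chr2:65457118-65567627, minus strand), Scn2a (chr2:65620771-65767447, plus), Scn1a (chr2:66270778-66440840, minus), Scn9a (chr2:66480080-66634962, minus) and Scn7a (chr2:66673425-66784914, minus). Scn8a lies alone on chromosome 15 (chr15:100869858-101045938, plus). An antisense gene, Gm13629, overlaps Scn9a over 65947 bases, and Gm13595 overlaps Scn3a over 3341 bases. Both are counted in the files. Gm13630, antisense to Scn1a over 12095 bases, is not counted, so no level can be given for it. Gm13627 and Gm23046, over 1333 and 284 bases of Scn9a, are not counted either. Strand use in the counting is not given in the sources used here, so reads of these pairs cannot be told apart. Gm13629 was counted at 102 to 183 CPM in neuron-like nuclei and at 3.14 to 15.0 CPM in astrocyte-like nuclei, and Gm13595 at no more than 3.01 CPM in any class of the comparisons. CPM is the gene's UMIs (unique molecules counted) per 1e6 UMIs summed over the nuclei of a class in one library.

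RefSeq promoter windows of GRCm38.p6 were matched for 5 of the 6 genes (7 windows). Those of Scn8a and Scn9a are shown because these genes had the smallest and the largest neuron to glia ratios of the 6 members, as given below. Each is the 250 bases before the annotated start, written 5′ to 3′ on the gene's strand, with every CG in capitals (the search was for CG, which reads the same on both strands). The Scn8a window is chr15:100870395-100870644 on the plus strand and the Scn9a window chr2:66634963-66635212 on the minus strand, and neither holds an annotated exon. The Scn8a window lies inside the gene's annotated span, before a start downstream of the first, and the Scn9a window just before the gene.
Scn8a: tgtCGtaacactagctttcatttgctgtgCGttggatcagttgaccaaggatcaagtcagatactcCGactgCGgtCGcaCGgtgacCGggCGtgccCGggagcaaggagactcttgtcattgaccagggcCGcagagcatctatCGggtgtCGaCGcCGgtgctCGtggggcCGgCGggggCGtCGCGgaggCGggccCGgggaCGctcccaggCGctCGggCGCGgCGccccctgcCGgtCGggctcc
Scn9a: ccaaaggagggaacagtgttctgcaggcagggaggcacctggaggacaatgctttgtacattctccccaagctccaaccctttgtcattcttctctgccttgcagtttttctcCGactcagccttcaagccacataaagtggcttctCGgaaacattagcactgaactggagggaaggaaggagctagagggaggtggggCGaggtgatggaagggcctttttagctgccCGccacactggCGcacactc
The Scn8a window holds 30 CG at 68% G and C, and the Scn9a window 5 CG at 54.4%. Over 32851 such windows of all genes the median was 6 CG, and 5.94% held 30 or more. The other windows held 4 (Scn1a), 3 (Scn7a), 2 and 9 (Scn2a) and 9 (a second Scn8a start). A CG count describes these letters only; methylation was not measured.

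After filtering, 29537 nuclei were used (4135 to 9829 a library), at a median of 3722.5 to 11913 UMIs per deposited nucleus. The 2 lowest medians were those of the CNO replicate 2 and VPA libraries. Libraries shared 4 to 21 cell barcodes pairwise. Clusters gave 17949 neuron-like nuclei in 4 classes: 408 oxytocin-like (OT-like: 97 in the saline library, 139 in VPA, 81 in hM3 control, 25 and 66 in CNO replicates 1 and 2), 1831 thalamus-type-like, 7692 other Slc17a6-rich (glutamatergic) and 8018 Slc32a1-rich (GABAergic). In the 5 OT-like clusters Oxt, the oxytocin gene, lay at 213 to 1209 CPM and Sim1, the transcription factor of the paraventricular lineage, at 225 to 759 CPM. The 4 large glial classes were astrocyte-like (4793), oligodendrocyte-like (2537), OPC-like (711) and microglia-like (767). The microglia-like class stands apart: its cluster passed for 9 of 9 microglia markers and for 11 of 11 neuron markers. Its median UMIs were 1927 and 1377 in the saline and VPA libraries and 4340, 19468 and 10744 in the second experiment. The members' values in comparisons that use glia are therefore given with and without it; partner counts, neuron-only counts and shares of all genes are given with it.

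**Figure D1:**
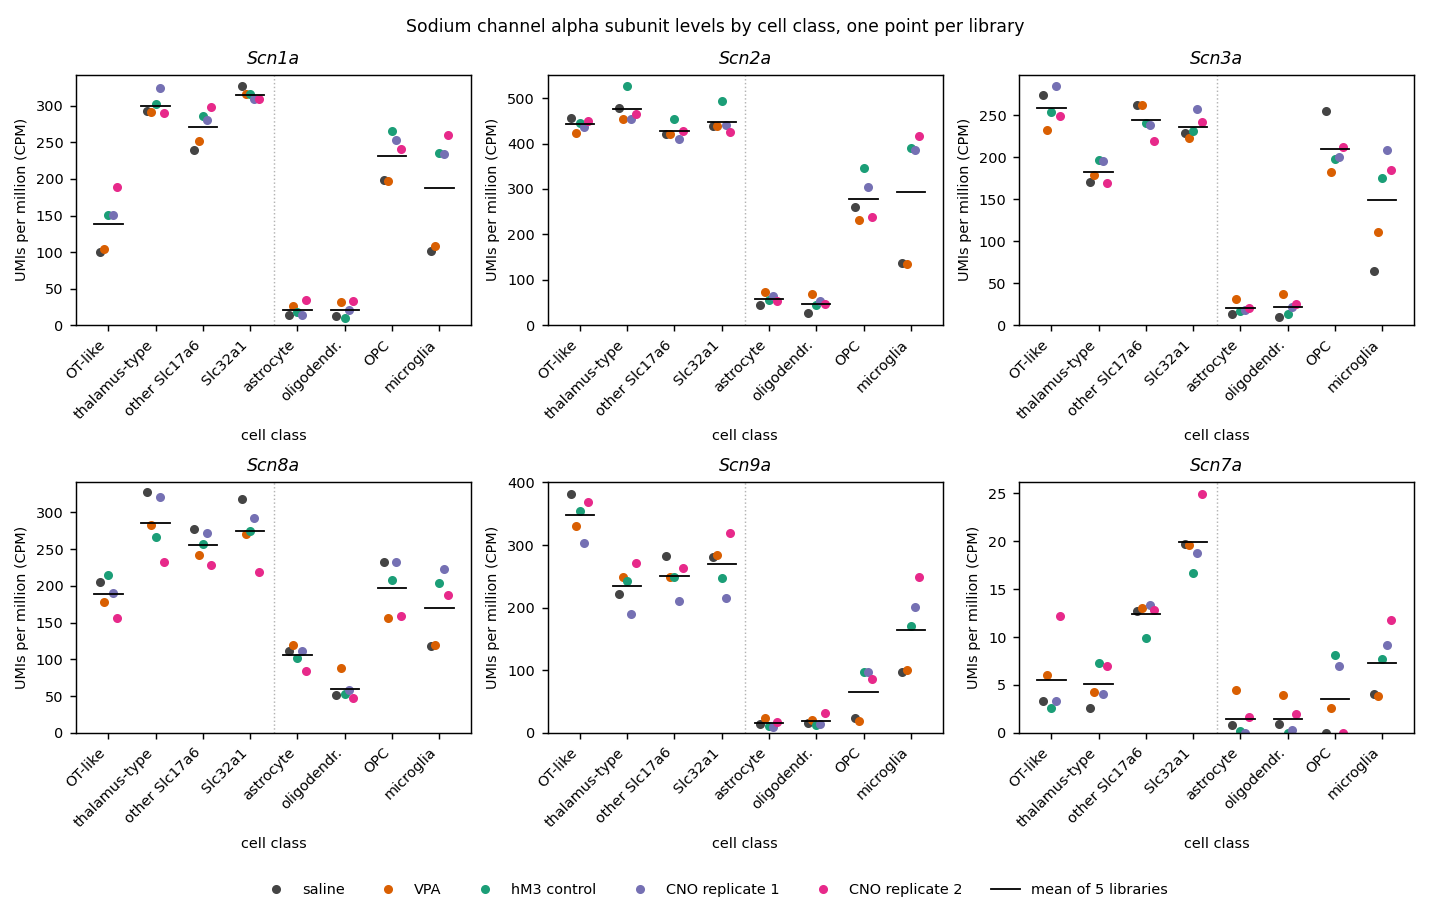
Level of each of the 6 genes (y axis, CPM) in 8 cell classes (x axis); each point is 1 library and each bar the mean of 5. Scn1a in OT-like nuclei lies at 99.5 to 188 CPM, below every other neuron class, while astrocyte-like and oligodendrocyte-like points lie near the bottom for all but Scn8a.

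Neurons against glia was asked first. All 6 genes were higher in the 4 neuron classes than in the 4 glial classes, by 2.09-fold (Scn8a) to 6.81-fold (Scn9a), in 5 of 5 libraries each. With the microglia-like class left out, the log2 differences were 3.39 for Scn9a, 2.36 for Scn1a and Scn3a, 2.28 for Scn2a, 2.23 for Scn7a and 1.21 for Scn8a. With it, the edgeR quasi-likelihood log2 differences were 2.77 ± 0.13 (SE, n = 5 libraries, Benjamini-Hochberg adjusted p = 1.23e-19) for Scn9a, 1.95 ± 0.10 for Scn3a, 1.91 ± 0.11 for Scn1a, 1.91 ± 0.11 for Scn2a, 1.71 ± 0.26 (adjusted p = 3.88e-07) for Scn7a and 1.07 ± 0.08 (adjusted p = 8.79e-15) for Scn8a. In this comparison 72.1% of the 14685 genes tested were called, 39% of them all as higher, so a call alone says little; the median log2 difference was 1.91 over the 6 members and 0.03 over all genes. The partners of the channels, a list of 18 other subunits, anchors and regulators of which 14 could be tested, were higher in neurons for 13. Among them were Sptbn4 (log2 2.37 ± 0.12), a spectrin of the axon initial segment, and Fgf13 (1.82 ± 0.10) and Fgf12 (1.72 ± 0.10), intracellular FGFs that bind the channels. Fgf11, of the same FGF group, was not called (0.12 ± 0.19).

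Oxytocin neurons differed from the other neuron classes in part of the set. Scn1a, Scn8a and Scn7a were lower in OT-like nuclei, and Scn2a, Scn3a and Scn9a were not called. All 3 calls of the 6 were in the lower direction, where 12.3% of all genes were called lower and 24.8% in either direction. The median log2 difference over the 6 members was -0.39, against -0.02 over all genes.

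Scn1a showed the largest difference. Its level in OT-like nuclei was 99.5 CPM in the saline library, 104 in VPA, 150 in hM3 control and 151 and 188 in CNO replicates 1 and 2, resting on 91 to 291 UMIs. In the other neurons pooled it was 281 to 299 CPM. The 2 sets of libraries did not overlap, and the levels of the first experiment were the lowest among the OT-like ones. The difference was 2.38-fold (log2 -1.25 ± 0.17 SE against the mean of the other 3 neuron classes, n = 5 libraries, edgeR adjusted p = 5.03e-07). After thinning each nucleus to 2000 UMIs, 19.0% of OT-like nuclei held a Scn1a UMI, against 44.4% of Slc32a1-rich and 4.16% of astrocyte-like nuclei. Unthinned shares were 61.0%, 82.8% and 6.24% at median depths of 13352, 8150.5 and 2660 UMIs. Thinning left out 1, 28 and 1482 nuclei in these classes.

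Scn8a, the axonal channel, lay at 157 to 215 CPM in OT-like nuclei (median 191) and at 228 to 301 CPM in the other neurons. The ranges did not overlap, and the log2 difference was -0.64 ± 0.13 (edgeR adjusted p = 1.87e-04). Scn7a lay at 2.58 to 12.2 CPM in OT-like nuclei, from 2 to 10 UMIs a library, and at 12.0 to 15.9 CPM in the other neurons. These ranges just met, and the log2 difference of -1.23 ± 0.37 (edgeR adjusted p = 0.0115) lost its call without the hM3 control library (-0.96, adjusted p = 0.0767).

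Scn2a was not called between OT-like nuclei and the other neurons. OT-like nuclei held 457 CPM in the saline library, 424 in VPA, 445 in hM3 control, 436 and 450 in CNO replicates 1 and 2, and the other neurons 428 to 478 CPM. The groups overlapped; the log2 difference was -0.14 with a 95% interval of -0.47 to 0.19 (edgeR adjusted p = 0.626). Scn3a, at 232 to 285 CPM against 203 to 236 CPM, was higher in OT-like nuclei within 5 of 5 libraries, but its log2 difference of 0.12 (-0.17 to 0.42) was not called (edgeR adjusted p = 0.625), and with no filter on low counts it was -0.04. Scn9a lay at 303 to 382 CPM in OT-like nuclei and 208 to 275 CPM in the other neurons. Those ranges did not overlap, yet the log2 difference of 0.36 ± 0.18 was not called (edgeR adjusted p = 0.150). With scaling to total counts in place of TMM (edgeR's scaling between sums) it was 0.48 and called (adjusted p = 0.0315), and with doublets kept it was 0.32 and called (adjusted p = 0.0327), where the median of all genes was -0.06. The total count scaling raised the median of all genes in this comparison from -0.02 to 0.10 and the share of calls that were higher from 50.3% to 67.7%; Scn1a (-1.13), Scn8a (-0.52) and Scn7a (-1.12) stayed called as lower.

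Among the partners, 1 was higher and 5 were lower in OT-like nuclei of 14 tested (background 12.5% and 12.3%). Fgf11 was at 11.2 ± 3.43 CPM (SD, n = 5) in OT-like nuclei and 3.62 ± 0.80 CPM in the other neurons (log2 1.97 ± 0.23 SE, edgeR adjusted p = 2.60e-08). Fgf13 was lower at 328 ± 69.7 against 498 ± 55.6 CPM (-0.84 ± 0.16). Beta subunits Scn2b (-0.31) and Scn3b (-0.11) and the scaffold Ank3 (-0.29), which anchors the channels at the initial segment, were not called.

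**Figure D2:**
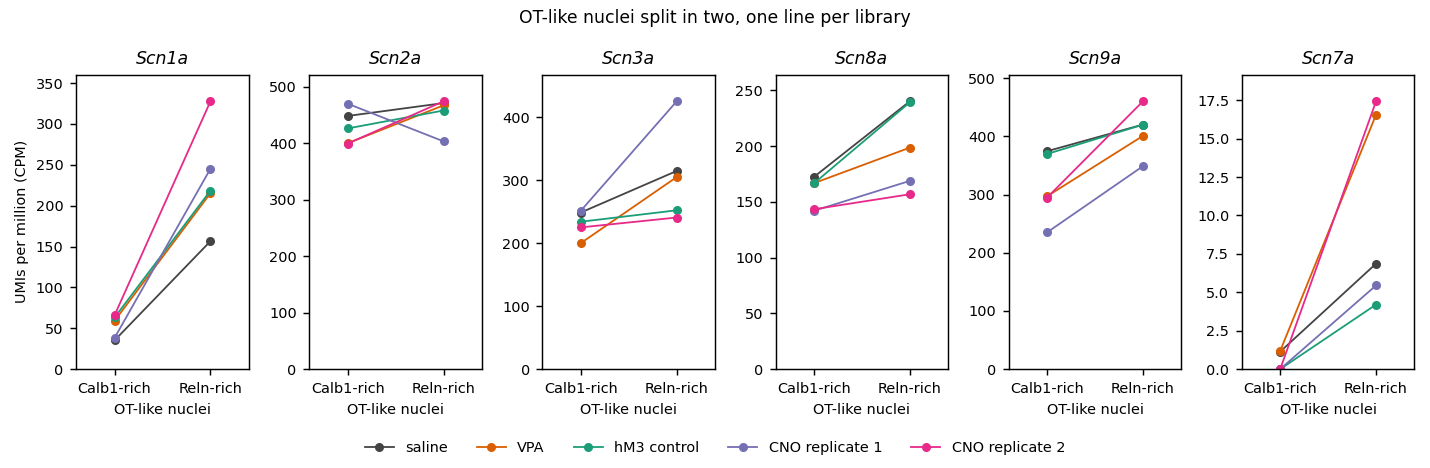
Level of each gene (y axis, CPM) in Calb1-rich and Reln-rich OT-like nuclei (x axis), 1 line per library. All 5 Scn1a lines rise from 35.2 to 65.9 CPM on the left to 157 to 328 CPM on the right, while the Scn2a lines rise in 4 libraries and fall in CNO replicate 1.

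Within the OT-like class Scn1a was low in one group of clusters and higher in another. Calb1-rich nuclei (219, clusters with Calb1, a calcium-binding protein gene, at 3 times Reln or more) were set beside Reln-rich nuclei (126, the reverse). The rest of the 408 OT-like nuclei, in clusters that met neither limit, are in neither group. This division was chosen after the data had been seen and is described without a test. Scn1a was at 35.2 CPM in Calb1-rich and 157 CPM in Reln-rich nuclei of the saline library, at 59.2 and 215 in VPA, at 63.2 and 218 in hM3 control and, among the CNO libraries, at 38.2 and 245 in replicate 1 and 65.9 and 328 in replicate 2. Every library had the lower level in the Calb1-rich nuclei, and the sets did not overlap. Over all libraries the log2 ratio was -2.03 (95% counting interval -2.31 to -1.76). Such intervals, here and below, cover counting error only. For Scn2a the ratio was -0.12 (-0.24 to 0.01), for Scn3a -0.38 (-0.54 to -0.22), for Scn8a -0.38 (-0.57 to -0.19) and for Scn9a -0.31 (-0.45 to -0.18). Scn7a was counted with 2 UMIs in Calb1-rich and 18 in Reln-rich nuclei. The mix of these nuclei differed between libraries, and its part in the OT-like level of Scn1a was not tested: Calb1-rich and Reln-rich nuclei numbered 52 and 37 in saline, 95 and 33 in VPA, 37 and 21 in hM3 control, 10 and 8, then 25 and 27, in CNO replicates 1 and 2.

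GABAergic and glutamatergic neurons were compared next. Slc32a1-rich and other Slc17a6-rich nuclei differed little in the 6 genes: 1 of 6 was called, against 4.62% of all genes (1.8% higher, 2.81% lower). Scn7a was higher in Slc32a1-rich nuclei, at 19.7, 19.6, 16.7, 18.7 and 24.9 CPM in saline, VPA, hM3 control and CNO replicates 1 and 2, against 12.7, 13.0, 9.95, 13.4 and 12.9 CPM. The ranges did not overlap (log2 0.67 ± 0.19, edgeR adjusted p = 0.0297). That call was not stable: leaving out the saline library (adjusted p = 0.0789), hM3 control (0.108), CNO replicate 1 (0.0998) or CNO replicate 2 (0.0785) ended it, as did DESeq2 (0.481), with differences of 0.61 to 0.72. Of the 1552 Scn7a UMIs in Slc32a1-rich nuclei, 473 and 259 came from 2 clusters with 401 and 360 of its 8018 nuclei. These are the Pmfbp1-led and Piezo2-led clusters given below, and the difference without them was not tested. Scn1a, whose channel is known from inhibitory neurons, was at 315 ± 7.29 CPM (SD, n = 5) in Slc32a1-rich and 271 ± 24.8 CPM in other Slc17a6-rich nuclei. It was higher within 5 of 5 libraries, but was not called (log2 0.24, 95% interval -0.11 to 0.60, edgeR adjusted p = 0.855). Scn2a (0.07), Scn8a (0.11), Scn9a (0.10) and Scn3a (-0.05) were not called either. Of the partners, Fgf13 (0.45), Fgf11 (-0.40) and Scn2b (0.22) were not called.

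Thalamus-type-like neurons, named from Tcf7l2, Lef1 and other thalamic markers, differed from other Slc17a6-rich nuclei in Scn7a under both scalings (total counts: -1.32). Its level was 2.62 to 7.34 CPM against 9.95 to 13.4 CPM, with no overlap (log2 -1.08 ± 0.23, edgeR adjusted p = 3.62e-04; 31.9% of all genes were called, 15.5% higher and 16.3% lower). Other calls moved with the scaling. Scn8a was called as higher with TMM (0.41 ± 0.14, edgeR adjusted p = 0.0241; 0.0597 without hM3 control and 0.172 without CNO replicate 1) and not with total counts (0.16, adjusted p = 0.278), and its levels of 232 to 327 and 228 to 277 CPM overlapped. Scn3a, at 169 to 197 against 219 to 262 CPM, with no overlap and lower in 5 of 5 libraries, was at -0.18 and not called with TMM (adjusted p = 0.472) but called as lower with total counts (-0.43, adjusted p = 0.0247). Scn9a was at 0.14 with TMM and -0.11 with total counts, not called by either. The change of scaling moved the median of all genes from -0.02 to -0.27 and the share of calls that were higher from 48.8% to 17.8%. Scn1a (0.41, adjusted p = 0.0828) and Scn2a (0.40, adjusted p = 0.123), higher in 4 and in 5 of 5 libraries, were not called, but both were with the microglia-like class left out (adjusted p = 0.0171 and 0.00293). Of the partners, Fgf13 stood at 985 ± 165 CPM against 335 ± 17.2 CPM (log2 1.78 ± 0.18, edgeR adjusted p = 8.15e-10) and Fgf12 at 0.81 ± 0.20 higher, while Fgf11 (-2.02 ± 0.24) was lower. In all, 4 of 14 partners were higher and 2 lower.

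**Figure D3:**
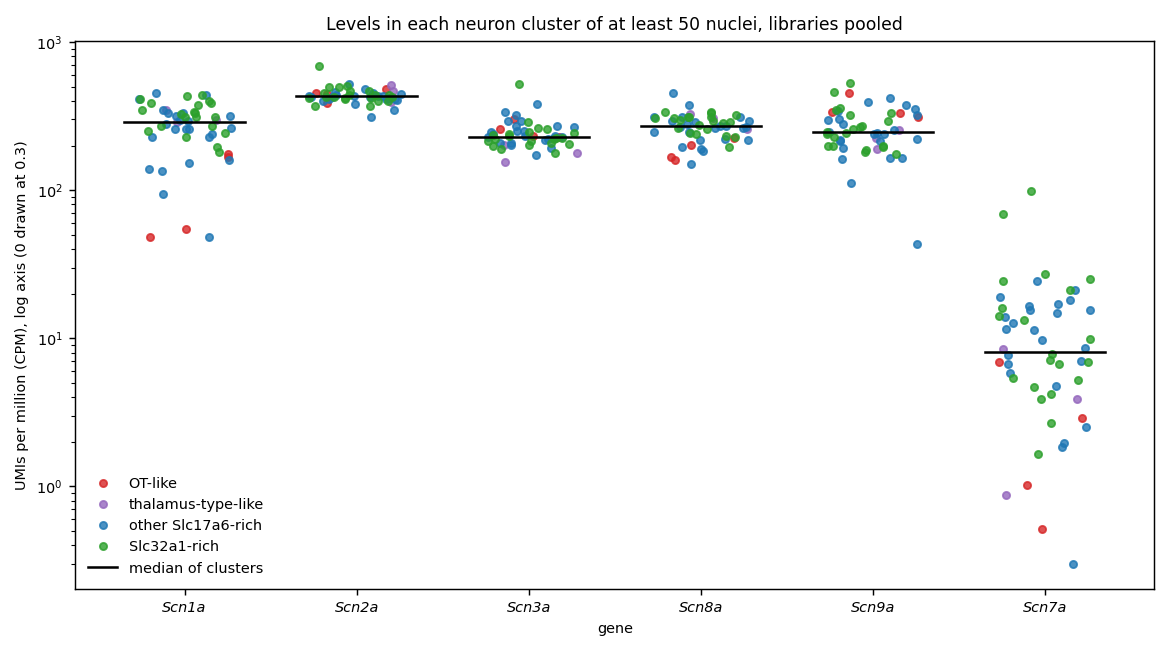
Level (y axis, CPM, log axis; a level of 0 is drawn at 0.3) of each gene in 52 neuron clusters, libraries pooled, coloured by class; the bar is the median. Scn2a points gather between 313 and 693 CPM, while Scn1a, Scn9a and Scn7a each have clusters far from the rest.

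Over the 52 neuron clusters of at least 50 nuclei, the genes differed in how evenly they were spread. The coefficient of variation of CPM was 0.12 for Scn2a, 0.21 for Scn8a, 0.24 for Scn3a, 0.34 for Scn9a, 0.37 for Scn1a and 1.27 for Scn7a, whose counts are low. Scn2a ran from 313 CPM, in the cluster led by Agtr1a, an angiotensin receptor gene, to 693 CPM in a GABAergic cluster led by Dock5, Ano3 and Pde1c. Scn1a ran from 48.1 to 454 CPM, a 9.44-fold range. Its 3 lowest clusters were 2 Calb1-rich OT-like ones (48.1 and 54.3 CPM) and the Agtr1a-led one (48.2 CPM, 443 nuclei), which is Sim1-positive at 318 CPM and not OT-like. Its 3 highest (438 to 454 CPM) were led by Gm42418, Syt2 and Lars2, by Gm27246, and by Gm13561 and Otof. The first of these, which sets the upper end of the range, ran from 226 to 461 CPM over its 4 libraries with at least 10 nuclei. The Agtr1a-led cluster was also the lowest in Scn8a (149 CPM).

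Scn3a was highest in a GABAergic cluster led by Eepd1, Pvalb and Kcnmb2, at 520 CPM (95% counting interval 492 to 549). It came next in the cluster led by Avp, the vasopressin gene, at 380 CPM (302 to 431 over 5 libraries), and was lowest in a thalamus-type-like cluster (154 CPM). Scn9a was highest in a GABAergic cluster led by Nr5a2 and Corin (532 CPM), then in one led by Lhx1os and Eya1 (456 CPM) and in the Reln-rich OT-like cluster led by Oxt and Esr2 (455 CPM). It was lowest, at 43.1 CPM from 29 UMIs, in the small cluster led by Pdzrn3 (60 nuclei) where Scn8a was at its highest (453 CPM). Scn7a reached 98.7 CPM (75.5 to 107 over 5 libraries) in a GABAergic cluster led by Pmfbp1, Gm12128 and Onecut2, and 69.1 CPM (61.0 to 88.1) in one led by Piezo2 and Synpr. The median cluster was at 8.12 CPM, so these 2 GABAergic clusters stood out in all 5 libraries.

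Across the 52 clusters, which share libraries and differ in depth, Scn1a and Scn8a varied together (Pearson r = 0.74) and Scn8a and Scn9a in opposite directions (r = -0.58). Scn3a with Scn9a gave 0.43, and Scn2a gave between 0.02 and 0.05 with each other member. These are descriptions with no p. The genes most like each member, over the same clusters on log2(CPM + 10), were Gm9866, Kifc2 and Trpm2 for Scn1a (r = 0.84 to 0.81) and Grin1, Nsf and Kcna2 for Scn8a (0.79 to 0.77). They were Izumo4, Dpysl3 and Ccdc82 for Scn9a (0.75 to 0.73), Mak, Kdsr and Ppil6 for Scn2a (0.63 to 0.58), Tbc1d9, Eci1 and Anapc16 for Scn3a (0.61 to 0.60) and Ddc, Nostrin and 1700042O10Rik for Scn7a (0.59 to 0.56).

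**Figure D4:**
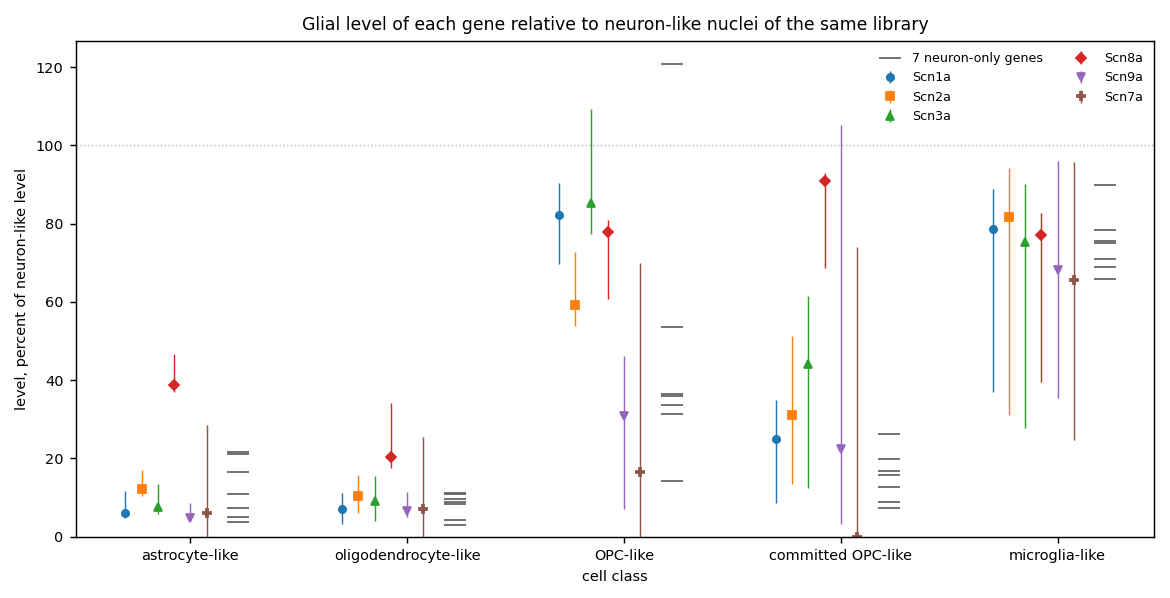
Level of each gene in 5 glial classes as a percent of the neuron-like level in the same library (y axis); symbols are medians over 5 libraries, lines the lowest and highest library, and grey ticks the medians of 7 neuron-only genes. Scn8a in astrocyte-like nuclei (38.7%) and the Scn1a, Scn3a and Scn8a symbols in OPC-like nuclei stand above most ticks.

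Glial nuclei were then compared with each other. Free RNA from neurons can enter glial droplets, so each gene's level is set beside that of 7 neuron-only genes (Snap25, Syt1, Rbfox3, Snhg11, Gad1, Slc17a6 and Stmn2) as a percent of the neuron-like level in the same library. In astrocyte-like nuclei the neuron-only genes lay at medians of 3.76% to 21.7%. Scn1a (6.12%), Scn2a (12.3%), Scn3a (7.50%), Scn9a (4.86%) and Scn7a (6.02%) were within that span. Scn8a was above it at 38.7% (37.0% to 46.6% over 5 libraries). Its level was 112 CPM in the saline library, 120 in VPA, 102 in hM3 control and 111 and 83.5 in CNO replicates 1 and 2. In oligodendrocyte-like nuclei Scn8a was at 20.4% (neuron-only genes 3.06% to 11.1%) and the other 5 at 6.59% to 10.4%.

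OPC-like nuclei held more Scn1a, Scn2a, Scn3a and Scn8a RNA than astrocyte-like and oligodendrocyte-like nuclei in 5 of 5 libraries, by CPM. Against the other glia, Scn9a was higher in 3 libraries and lower in 2, and Scn7a higher in 2 and lower in 3. Microglia-like nuclei were above them in mean CPM for Scn2a, Scn9a and Scn7a. Scn1a was at 198 CPM in the saline and VPA libraries, 265 in hM3 control and 254 and 242 in CNO replicates 1 and 2, against 9.59 to 34.3 CPM in astrocyte-like and oligodendrocyte-like nuclei. The levels were far apart in every library. As a percent of neurons the medians were 85.3% for Scn3a, 82.2% for Scn1a, 77.8% for Scn8a, 59.3% for Scn2a, 30.8% for Scn9a and 16.5% for Scn7a. The neuron-only genes ran from 14.2% (Slc17a6) to 53.6% (Snap25), with Gad1 apart at 121%. Against the mean of the other 3 glial classes 5 of 6 members were higher (22.5% of all genes were called higher and 36.8% in either direction): Scn1a (log2 2.46 ± 0.17 SE, n = 5, edgeR adjusted p = 1.02e-14), Scn3a (2.44 ± 0.17), Scn2a (1.63 ± 0.17), Scn8a (0.99 ± 0.13) and Scn9a (0.98 ± 0.25, adjusted p = 0.00212). Neuron-only genes moved with them: 5 of 7 were called higher as well, and their part in the result was not tested. Scn9a was at 24.0 and 19.3 CPM in the first experiment and 97.2, 96.6 and 85.4 CPM in the second. The summed neuron-only level in OPC-like nuclei moved the same way, from 923 and 1124 to 3916, 3547 and 3293 CPM. Without the hM3 control library (0.58, adjusted p = 0.159) or CNO replicate 1 (0.71, adjusted p = 0.0705) Scn9a was not called. Of 14 partners, 9 were higher and 1 lower in OPC-like nuclei, with Sptbn4 (2.03 ± 0.21), Fgf12 (1.84 ± 0.16) and Fgf14 (1.73 ± 0.19) among the higher ones.

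With the microglia-like class left out, the OPC-like differences from astrocyte-like and oligodendrocyte-like nuclei were larger, at log2 3.39 for Scn1a, 3.28 for Scn3a, 2.33 for Scn2a, 2.00 for Scn9a, 1.97 for Scn7a and 1.25 for Scn8a, and all 6 were called by edgeR. For Scn7a (adjusted p = 0.0252) the OPC-like levels of saline, VPA and CNO replicate 2 (0, 2.57 and 0 CPM) were nonetheless below those of both other classes, so the higher value rests on hM3 control and CNO replicate 1. Scn7a, at 0 to 10 UMIs a library in OPC-like nuclei, was not called in the fit with that class (1.12 ± 0.63, adjusted p = 0.167) but was without the VPA library (1.82, adjusted p = 0.0359). Committed OPC-like nuclei (215), on the way to oligodendrocytes, held Scn8a at 155 to 271 CPM over 5 libraries, a median of 90.8% of neurons, while neuron-only genes lay at 7.22% to 26.1%. Scn3a (44.0%) and Scn2a (31.0%) were above that span too, and Scn1a (24.8%) and Scn9a (22.3%) within it. This small class was in no test. All 6 members were called lower in astrocyte-like and in oligodendrocyte-like nuclei against the other glia (30.1% and 35.5% of all genes were called lower, 29.3% and 24.1% higher, 59.4% and 59.7% in either direction), and all 6 higher in microglia-like nuclei (34.2% higher, 54.9% in either direction). For astrocyte-like Scn8a the difference was -0.33 ± 0.13 (edgeR adjusted p = 0.0254), and -0.10 (adjusted p = 0.392) without the microglia-like class. Scn7a in astrocyte-like (-0.90, adjusted p = 0.285) and oligodendrocyte-like nuclei (-1.07, adjusted p = 0.262) also lost its call without that class, and oligodendrocyte-like Scn9a went from -1.52 to -0.67 (adjusted p = 0.0345). The other astrocyte-like values without it were -1.76 for Scn1a, -1.80 for Scn3a, -1.06 for Scn2a and -1.33 for Scn9a, and the other oligodendrocyte-like ones -1.63, -1.48 and -1.27 for Scn1a, Scn3a and Scn2a and -1.15 for Scn8a, all called. Neuron-only genes were lower too, 5 of 7 in astrocyte-like (median log2 -1.50) and 7 of 7 in oligodendrocyte-like nuclei (median -1.63), and their part in the result was not tested. Leaving out the hM3 control, CNO replicate 1 or CNO replicate 2 library ended the astrocyte-like calls of Scn8a (edgeR adjusted p = 0.118 to 0.217) and Scn7a (0.0583 to 0.143) and the oligodendrocyte-like call of Scn7a (0.0522 to 0.244). In the microglia-like class the members stood at medians of 65.7% to 81.8% of the neuron level and the neuron-only genes at 65.8% to 89.8%.

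Outside these classes, Scn7a was at 34.7 to 78.2 CPM in ependymal-like nuclei of the 3 libraries with 19 to 36 of them, from 2 to 12 UMIs, and was counted with 1 UMI in the 11 such nuclei of CNO replicate 1 (52.0 ± 29.1 CPM, SD, over the 4 libraries). In fibroblast-like nuclei 1 library differed from the rest: the VPA library held 2362 CPM (219 UMIs in 32 nuclei) and the saline, hM3 control and CNO replicate 2 libraries 8.47, 8.20 and 16.1 CPM. These values rest on few nuclei and on 1 library, and no comparison was made.

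The effects of prenatal VPA and of neonatal CNO were asked in neuron-like and OT-like nuclei. With 1 library in an arm there was no test, and 1 library against 2 cannot give an exact permutation p under 0.333. Genes past a 1.5-fold ratio are counted as a description. In neuron-like nuclei 0 of 6 members were past 1.5-fold between VPA and saline, where 12.7% of 19073 genes were, and 0 of 6 in both CNO libraries against hM3 control, where 8.01% were. In OT-like nuclei 0 of 5 were (for VPA 16.2%, 8.81% higher and 7.38% lower; for CNO 8.23%), Scn7a having too few UMIs to count. Of 6 members, 0 passed in other Slc17a6-rich nuclei (VPA 7.04% higher and 4.71% lower, CNO 7.54%) and 0 in Slc32a1-rich nuclei (VPA 7.93% and 4.27%, CNO 6.49%). In thalamus-type-like nuclei Scn7a passed in VPA, at 2.62 and 4.27 CPM from 25 and 14 UMIs (log2 0.70, 95% counting interval -0.35 to 1.70; 10.8% of genes were higher and 5.5% lower), and 0 of 6 with CNO (9.9%).

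**Figure D5:**
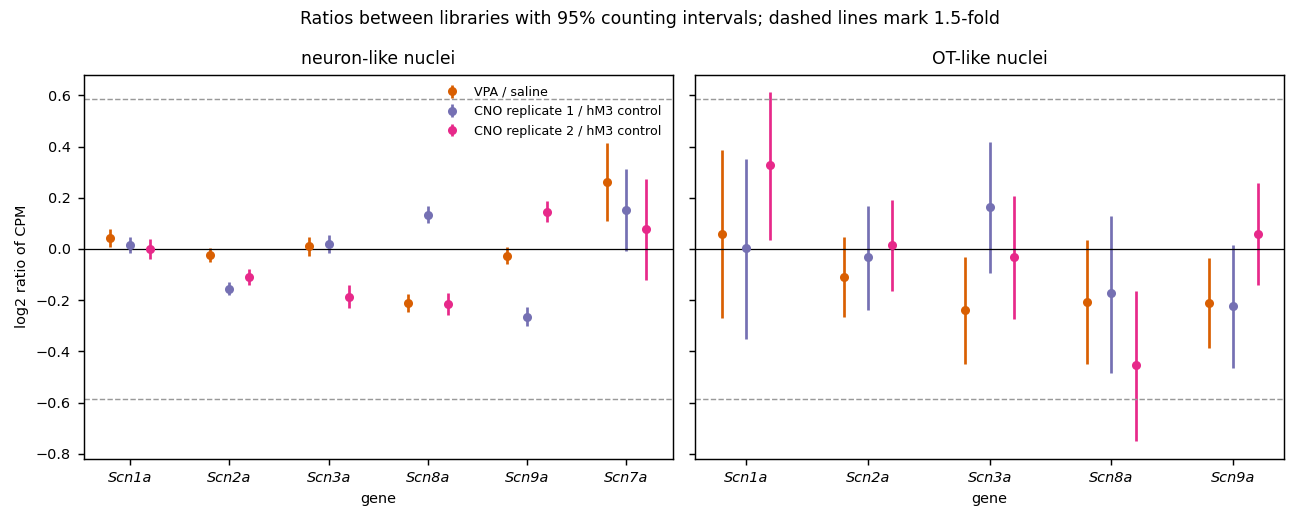
Log2 ratio of CPM between libraries (y axis) for VPA over saline and for each CNO library over hM3 control, in neuron-like nuclei (left) and OT-like nuclei (right); bars are 95% counting intervals and dashed lines mark 1.5-fold. No point shown passes a dashed line; Scn7a, with 2 to 10 UMIs a library, is not drawn for OT-like nuclei.

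In neuron-like nuclei the ratio furthest from 0 among the 5 members other than Scn7a was that of Scn8a. It was at 298 CPM in the saline and 258 CPM in the VPA library (log2 -0.21, 95% counting interval -0.25 to -0.18). It was lower in VPA in all 4 neuron classes (-0.20 to -0.23), which share the same libraries. Scn8a was lowest in CNO replicate 2 (226 CPM) and VPA (258 CPM), the libraries of lowest median depth, with hM3 control at 262 CPM. The part of depth was not tested. The median of all genes was 0.08. For Scn1a (0.04), Scn2a (-0.03), Scn3a (0.01) and Scn9a (-0.03) the ratios were smaller, and Scn7a, at 13.0 and 15.6 CPM, stood at 0.26 (0.11 to 0.41). Within classes Scn7a stood at 0.03 in other Slc17a6-rich (288 and 246 UMIs) and -0.01 in Slc32a1-rich nuclei (365 and 489 UMIs). It was at 0.70 in thalamus-type-like and 0.85 in OT-like nuclei, from 6 to 25 UMIs a library. Slc32a1-rich nuclei, higher in Scn7a, were 1460 of 3573 neuron-like nuclei in saline and 4007 of 7041 in VPA. The part of this mix in the pooled ratio was not tested. Against hM3 control, 2 of 6 members (Scn1a and Scn7a) were higher in both CNO libraries, 1 (Scn2a) was lower in both and 3 went in opposite directions. For Scn1a the levels were nearly equal, at 293.6 CPM in hM3 control and 296.9 and 293.8 in CNO replicates 1 and 2. Scn8a was at 262 CPM in hM3 control and 288 and 226 in CNO replicates 1 and 2 (log2 0.13 and -0.21), and Scn9a at 251 CPM in hM3 control, with log2 ratios of -0.26 and 0.14. The gap between the 2 CNO libraries, 0.35 for Scn8a and -0.41 for Scn9a, was larger in size than the VPA ratio of any of the 6 members. Gm13629, antisense to Scn9a, also differed between these libraries, at 102 CPM in hM3 control, 116 in CNO replicate 1 and 183 in replicate 2, and its part in the Scn9a counts was not tested. Scn2a was at 477 CPM in hM3 control and 428 and 442 in the CNO libraries (-0.15 and -0.11, with a median of all genes of 0.12). Both ratios share the one hM3 control library, which stood above the other 4: saline and VPA, at 439 and 432 CPM, were at the CNO level. In OT-like nuclei the VPA ratios were 0.06 (-0.27 to 0.39) for Scn1a, -0.11 (-0.27 to 0.05) for Scn2a, -0.24 (-0.45 to -0.03) for Scn3a, -0.21 (-0.45 to 0.03) for Scn8a and -0.21 (-0.39 to -0.04) for Scn9a. The CNO ratios in replicates 1 and 2 had the same sign for 2 of 5 members, at 0.01 (-0.35 to 0.35) and 0.33 (0.04 to 0.61) for Scn1a and at -0.17 (-0.48 to 0.13) and -0.45 (-0.75 to -0.17) for Scn8a. They had opposite signs for Scn2a (-0.03 and 0.01), Scn3a (0.16 and -0.03) and Scn9a (-0.22 and 0.06).

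Of 14 partners, 2 were past the fold for VPA in OT-like nuclei (16.2% of all genes were), and of 17 in neuron-like nuclei 1 for VPA and 2 for CNO (12.7% and 8.01%). Fgf11, named after its values were seen, was at 7.23 CPM in saline and 15.8 CPM in VPA in OT-like nuclei (13 and 21 UMIs, log2 1.13, 0.06 to 2.25). In neuron-like nuclei Scn4b, a beta subunit also named after its values were seen, passed the fold in VPA and in both CNO libraries but was counted with 10 to 38 UMIs a library.

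In astrocyte-like and oligodendrocyte-like nuclei the ratios were set beside those of the neuron-only genes. Of the members with enough UMIs, 4 of 5 were past 1.5-fold higher in VPA in astrocyte-like nuclei (11.4% of all genes were, 5.88% lower and 17.3% in either direction) and 4 of 5 in oligodendrocyte-like nuclei (14.8%; 21.8% in either direction). Scn3a, for example, was at 13.3 and 31.7 CPM in astrocyte-like nuclei of the saline and VPA libraries, and Scn1a at 14.1 and 26.3 CPM. Neuron-only genes were past the fold as well, 5 of 7 in astrocyte-like and 5 of 5 with enough UMIs in oligodendrocyte-like nuclei, with summed levels of 396 and 783 CPM and of 382 and 789 CPM in saline and VPA. Their part in the result was not tested. Scn8a in astrocyte-like nuclei did not pass the fold (log2 0.10, -0.14 to 0.35). With CNO, 0 of 5 members passed in astrocyte-like nuclei (9.4% of genes did). Scn1a stood there at -0.33 and 0.93 in replicates 1 and 2. The astrocyte-like clusters were unevenly filled: the one led by Apoe and Agt held 1422 of 1575 nuclei in CNO replicate 2, 110 of 375 in replicate 1, 239 of 1034 in hM3 control, 13 of 680 in saline and 40 of 1129 in VPA. The part of this in the ratios was not tested. In oligodendrocyte-like nuclei Scn1a and Scn3a, 2 of 5 members, were past the fold higher in both CNO libraries (12% of genes were, in either direction), beside 3 of 7 neuron-only genes. In OPC-like nuclei 0 of 5 members passed in either experiment (21% and 10.7% of genes did); Scn8a, at 232 CPM in saline and 157 in VPA (log2 -0.56, -0.92 to -0.21), came closest. All 5 VPA ratios were below 0 there (median log2 -0.32), while of the 6 neuron-only genes with enough UMIs 4 were above 0, 2 of them past the fold (median log2 0.40). In microglia-like nuclei 1 of 5 members passed in VPA (24.1% of genes did), Scn3a at 64.9 and 112 CPM from 16 and 29 UMIs (log2 0.78, -0.15 to 1.76), and 0 of 6 with CNO (13.5%).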

How the data were processed

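The 5 libraries hold raw UMI counts per gene and nucleus, deposited by the authors as filtered 10x matrices made with Cell Ranger 7.0.1 on build mm10, per the submitters' processing notes. Whether introns or strand entered the counting is not given in the sources used here. Of 31053 gene identifiers, 99.9% matched the GRCm38 annotation. An added Cre feature was left out.

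Nuclei under 1000 UMIs, or above 5% mitochondrial UMIs, were dropped. Scrublet's automatic limit marked under 0.5% in 4 libraries, so the highest scores were removed to 0.8% per 1000 nuclei, together with all nuclei tied at the last score, a limit chosen after seeing scores. Nuclei were clustered (scanpy 1.11.5, 2000 variable genes, 30 components, 20 neighbours, Leiden resolution 1; neurons again at 2, and Oxt-high clusters once more at 1, added after seeing the data). Clustering did not use the members, their partners, Oxt or Avp. Clusters were named from marker lists, and OT-like meant Oxt at 5 times the mean of neuron clusters or more with Sim1 and Otp above their means. Names were rebuilt here and may differ from the study's. Members and lists were chosen with earlier results of these data known.

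Counts were summed per library and class (at least 10 nuclei) and fitted in edgeR 4.0.16 (quasi-likelihood, TMM, library as a block, Benjamini-Hochberg over 14685 genes, threshold 0.05), with 8 class comparisons. Libraries are the replicates, with mice pooled within them. With library as a block, p-values measure how class differences vary between libraries, with an estimate of spread shared by the 8 classes. The fit was tested on simulated data for the OT-like comparison over 13907 genes. It recovered 81% of changes of 1 and 39% of 0.5 on the log2 scale, with 3 false calls. The simulated counts had an assumed spread, equal means in all classes apart from those changes, and no library effect. These shares hold for that setting and were not computed for the real one. Ratios between conditions were counted only for genes with at least 20 UMIs summed over the libraries compared, and intervals are exact 95% Poisson or binomial. Named genes were the 6 members, the 4 partners with the largest difference in each comparison, the 3 genes most alike, the 7 neuron-only genes and the 3 highest and lowest clusters; some of these are not reported here. Alternatives were DESeq2 1.42.0, other filters, scalings and class limits, and leaving out each library; 4 were added after seeing the data.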

Additional observations from a re-analysis of the deposited data

How the results depend on the processing

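The count of members called, or past 1.5-fold between conditions, kept within 1.5 times of its value in 113 of 125 recomputations. Among single member results of the class comparisons, 575 of 618 kept direction and side of the threshold, with 28 losing and 13 gaining a call. Of 122 recomputed member ratios between conditions, 24 fell outside the counting interval. For Slc32a1-rich against other Slc17a6-rich neurons the count of 1 became 0 with DESeq2, with clusters high in Gad1 and Gad2 counted as Slc32a1-rich, and without the saline, hM3 control, CNO replicate 1 or CNO replicate 2 library (0 to 1 over all left-out libraries). The genes called in all there went from 678 to 413 without hM3 control and 1098 without the microglia-like class. For thalamus-type-like neurons 2 became 1 with no filter and without hM3 control or CNO replicate 1 (1 to 2 over libraries), and 4 with a minimum of 2000 UMIs, doublets kept, or the microglia-like class left out, where Scn1a and Scn2a joined. Total count scaling raised all genes called there from 4681 to 7430 and turned Scn9a to -0.11. With no filter Scn3a in OT-like nuclei turned to -0.042, 28.4% of calls in that comparison were higher, against 50.3%, and the median of all genes fell to -0.25. The higher share was 39.4% without CNO replicate 1 and 37.5% without the microglia-like class. For microglia-like nuclei it was 62.2%, 50.2% with doublets kept and 73.3% with total counts, and for OPC-like nuclei 61.2%, or 50.6% without the microglia-like class. The median over all genes moved by over 0.1 also for neurons against glia (0.03, or 0.22 with no filter), OPC-like nuclei (0.01, or -0.13 with no filter), microglia-like nuclei (0.09, or 0.24 with total counts and -0.04 with doublets kept) and oligodendrocyte-like nuclei (-0.15, or -0.02 with doublets kept and -0.28 with total counts). In these 4 comparisons no member changed direction. Over all alternatives, 4 to 6 members were called in OPC-like and astrocyte-like nuclei, 5 to 6 in oligodendrocyte-like and 2 to 4 in OT-like nuclei, and 6 throughout in neurons against glia and in microglia-like nuclei. The counts of members past 1.5-fold by condition were 0 under every alternative run for neuron-like and OT-like nuclei. Median of ratios scaling moved the VPA ratios in neuron-like nuclei down, Scn8a to -0.28, Scn1a to -0.03 and Scn3a to -0.06, so that the last pair changed sign. The cause of these changes was not tested. No paired analysis was possible because the condition groups share fewer than 2 replicate numbers. Depth limits Scn7a most, at 2 to 10 UMIs a library in OT-like nuclei.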
